A study of Homo sapiens with 6 samples.

Results

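MKNK2 and G3BP2 are 2 of the 402 genes that the authors listed as higher after knockdown of YTHDC2 in CAL-27 cells, an established line of human oral squamous cell carcinoma. They were taken from the list by gene name, and both were found, each on 1 row. The libraries came from shYTHDC2 cells, which carry a short hairpin RNA against YTHDC2 (n = 3), and from NC cells, the control (n = 3). The labels name no other agent or allele, and they give neither the hairpin sequence nor the number of hairpins or clones. YTHDC2 is a helicase that recognises RNA carrying the methyl mark N6-methyladenosine, and the study asked how its loss changes gene expression.

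MKNK2 encodes MNK2, a serine/threonine kinase that ERK and p38 MAP kinases activate. MNK2 docks on the scaffold eIF4G and phosphorylates the cap-binding factor eIF4E, which recruits ribosomes to capped mRNA, and this phosphorylation has been linked to the translation of mRNAs that favour tumour growth. G3BP2 encodes an RNA-binding protein that, like its paralog G3BP1, nucleates stress granules, the cytoplasmic condensates in which untranslated mRNA collects when initiation stalls.

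Poly(A) RNA was sequenced, and expression was given as FPKM, fragments corrected for transcript length and library size. The sequencing depth of the libraries is unknown. The replicates are labelled biological, but nothing says that they came from separate cultures, so the spread given here is that between these libraries. Every listed gene had been selected as at least 2.00-fold higher in shYTHDC2 on these same 6 libraries. The levels of both genes are therefore a description, and no test of them is given. YTHDC2 mRNA was not analysed here, and the knockdown itself is therefore unchecked. None of 8 squamous keratinocyte markers was among the listed genes (0 of 8), so the labelled cell type could not be checked either. The fibroblast and leukocyte markers also had 0 of 7 and 0 of 5 genes listed, and the endothelial markers 1 of 5, the cadherin CDH5, at 3.12 ± 0.41 FPKM in shYTHDC2 and 1.52 ± 0.12 FPKM in NC (SD, n = 3 each). The part of other cells in the results was not tested, and in bulk RNA more cells of a type and more RNA per cell cannot be told apart.

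MKNK2 (ENSG00000099875) was among the most abundant of the listed genes and stood nearly 3 times as high in shYTHDC2 cells as in NC cells. Its level was 51.3, 47.7 and 47.7 FPKM in shYTHDC2 replicates 1, 2 and 3, against 18.0, 16.9 and 18.4 FPKM in NC replicates 1, 2 and 3. The groups did not overlap, and the lowest shYTHDC2 library was 2.59 times the highest NC library. The means were 48.9 ± 2.1 FPKM in shYTHDC2 and 17.8 ± 0.81 FPKM in NC (SD, n = 3 each), a 2.75-fold difference. On the log2(FPKM + 1) scale the difference was 1.41 (SE 0.05), where a pseudocount of 1 FPKM slightly understates the change. Within groups the libraries were close. The highest shYTHDC2 library was 7.51% above the lowest, and the highest NC library was 9.25% above the lowest. The values on which the authors listed MKNK2 were, in the authors' deposited table, a fold of 2.75, p = 2.88e-169 and q = 7.41e-166, from a test that the table does not name.

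In GRCh38, with positions from GENCODE release 29, MKNK2 lies on the minus strand at chr19:2037465-2051244. The annotation holds 13 transcripts of the gene, 8 of them protein-coding, and the deposited table names 10 transcript identifiers in its row. The FPKM is a value for the gene as a whole and does not separate the isoforms MNK2a (transcript MKNK2-201) and MNK2b (MKNK2-202), which are known to differ at the C-terminus, where MNK2a alone carries the MAP kinase binding motif. The coding sequences share their first 1154 bases. MKNK2-201 then has 241 coding bases of its own, at chr19:2039616-2039856, and MKNK2-202 has 88, at chr19:2037742-2037829. The point of divergence is shown because up to it the coding sequences are the same. The 15 shared bases are in lower case and the first 60 bases of each isoform's own coding sequence in capitals, 5′ to 3′ on the minus strand.
MKNK2-201: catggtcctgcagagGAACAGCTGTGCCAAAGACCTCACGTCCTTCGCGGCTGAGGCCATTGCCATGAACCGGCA
MKNK2-202: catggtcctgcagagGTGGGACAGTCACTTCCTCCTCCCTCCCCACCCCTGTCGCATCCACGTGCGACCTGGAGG

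RefSeq gives 1 start for MKNK2, at position 2051244 of chromosome 19 (GRCh38.p14). The 250 bases before it, chr19:2051245-2051494 on the minus strand, are shown as the control region of the gene with the larger difference, with every motif match in capitals. They are 77.2% G or C and overlap no annotated exon of MKNK2.
MKNK2 promoter: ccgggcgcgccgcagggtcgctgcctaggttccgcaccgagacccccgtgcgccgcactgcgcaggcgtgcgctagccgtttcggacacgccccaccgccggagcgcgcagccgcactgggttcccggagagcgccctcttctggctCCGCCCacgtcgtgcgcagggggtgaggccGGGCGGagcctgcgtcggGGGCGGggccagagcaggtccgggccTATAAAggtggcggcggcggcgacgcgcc

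Searched on both strands were a TATA box (TATAAA), a GC box (GGGCGG, read CCGCCC on the other strand), a CCAAT box (CCAAT), a cAMP response element (TGACGTCA), an E-box (CACGTG) and the core of an NRF1 site (GCATGCGC). The MKNK2 window held 1 TATA box, at 29 to 24 bases before the start, and 3 GC boxes, at 103 to 98, 73 to 68 and 55 to 50 bases before it. Of 35116 such RefSeq windows, 10.7% held TATAAA and 42.6% held a GC box. A match is a description of the sequence and says nothing of binding.

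G3BP2 (ENSG00000138757) stood more than 2 times as high in shYTHDC2 cells as in NC cells, with a very narrow spread in shYTHDC2. Its level was 20.7, 20.4 and 20.8 FPKM in shYTHDC2 replicates 1, 2 and 3, against 8.76, 9.55 and 8.82 FPKM in NC replicates 1, 2 and 3. The groups did not overlap, and the lowest shYTHDC2 library was 2.14 times the highest NC library. The means were 20.6 ± 0.19 FPKM in shYTHDC2 and 9.04 ± 0.44 FPKM in NC (SD, n = 3 each), a 2.28-fold difference. The log2(FPKM + 1) difference was 1.11 (SE 0.04). The shYTHDC2 libraries lay within 1.70% of one another, and the NC libraries within 8.92%, with NC replicate 2 the highest. In the authors' deposited table G3BP2 was listed with a fold of 2.28, p = 8.46e-160 and q = 1.74e-156.

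Both genes thus had groups that did not overlap. The same held for 364 of the 402 listed genes (90.5%), and for 186 (99.5%) of the 187 listed genes whose group mean reached 1 FPKM in shYTHDC2, in NC or in both, called expressed from here on. All listed genes had been called higher by the authors (100%). Since the list was selected on this contrast, nothing is read from these shares.

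**Figure D1:**
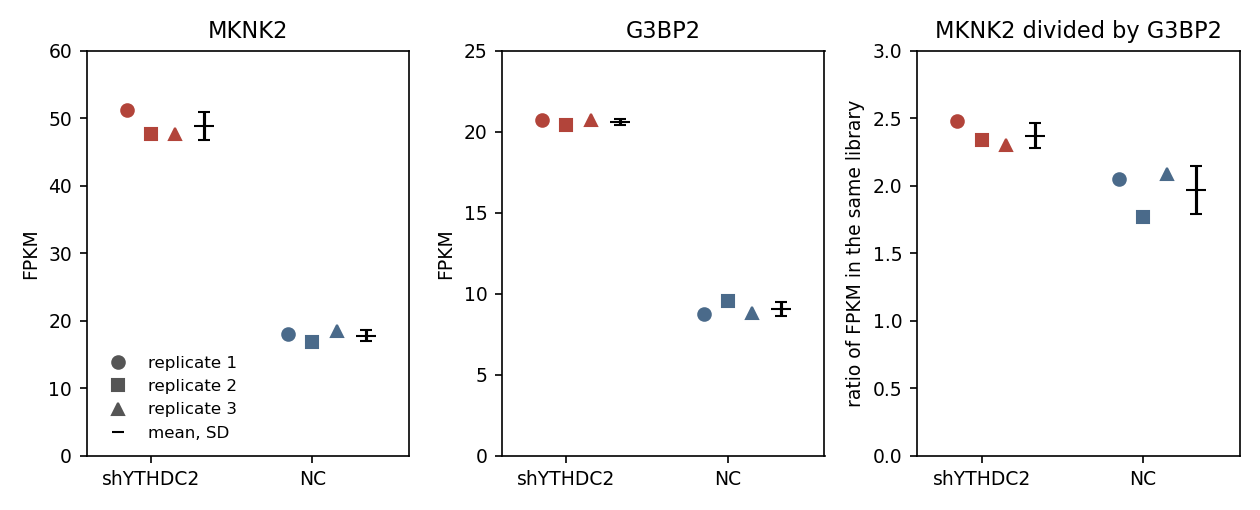
FPKM of MKNK2 and G3BP2, and the ratio of MKNK2 to G3BP2, in each library (points, with a symbol for each replicate number), with the mean and SD of each group (black, n = 3 each) and axes that start at 0. The shYTHDC2 libraries lie at 47.7 to 51.3 FPKM for MKNK2 and 20.4 to 20.8 FPKM for G3BP2, above NC libraries at 16.9 to 18.4 and 8.76 to 9.55 FPKM.

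G3BP2 lies on the minus strand at chr4:75642782-75724525 (GRCh38, GENCODE release 29). The annotation holds 19 transcripts, 13 of them protein-coding, and the deposited row names 44 transcript identifiers. Its main coding isoforms differ by 1 coding exon of 99 bases, at chr4:75653983-75654081, which G3BP2-202 includes and G3BP2-201 skips. Their coding sequences are 1446 and 1347 bases long. The gene-level FPKM covers both. The exon is shown in capitals with 15 coding bases on either side, followed by the same junction without it, since these are the bases in which the isoforms differ.
G3BP2-202: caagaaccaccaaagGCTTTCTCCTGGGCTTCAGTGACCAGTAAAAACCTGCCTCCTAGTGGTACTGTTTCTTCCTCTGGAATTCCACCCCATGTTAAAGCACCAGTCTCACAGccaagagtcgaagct
G3BP2-201: caagaaccaccaaagccaagagtcgaagct

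RefSeq gives 5 starts for G3BP2, and the gene-level value does not show which were used. Of the motifs searched, the rarer ones among promoters were found before 2 of the starts. A cAMP response element stood 53 to 46 bases before the start at 75673595, and 1.65% of all promoter windows held it. All 250 bases of that window lie in annotated exons of G3BP2 (GENCODE release 29), so the element lies in exon sequence. The windows of the other starts overlap such exons by 88 to 200 bases. An NRF1 core stood on both strands, in overlap, 195 to 186 bases before the start at 75724437, and 2.63% of windows held one. This core also lies within the neighbouring gene USO1, which starts at chr4:75724593 on the opposite strand and was not among the listed genes. The window of the start at 75724437 also ended in an E-box, 6 to 1 bases before the start, found in 6.34% of windows. No TATA box was found in any of the 5 windows. Windows of 30 bases round the element and the core, at chr4:75673630-75673659 and chr4:75724612-75724641 (minus strand, GRCh38.p14), are shown with the motif in capitals.
G3BP2 cAMP response element: cagcctgcttgTGACGTCAaatcagcggac
G3BP2 NRF1 core: ggccaagatGCGCATGCGCggggacgtggc

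The CCAAT box and the GC box were the commoner of the G3BP2 matches. The windows before the starts at 75672894 and 75672701 overlap and held the same CCAAT box, and GC boxes stood before the starts at 75673157, 75673595 and 75672701. A CCAAT box was held by 32.0% of all windows. The MKNK2 window held none, and the only motif found in windows of both genes was the GC box.

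The word GGACT, a common form of the sequence in which N6-methyladenosine is placed, was counted in the longest coding transcript of each gene because YTHDC2 binds that mark. MKNK2-201 held 7 in 3774 bases, or 1.85 per kilobase, and G3BP2-202 held 4 in 4883 bases, or 0.819 per kilobase. The median over 290 listed coding genes was 0.964 per kilobase and over 19659 coding genes 0.927. The transcripts also differ in base composition, with 62.0% G or C in MKNK2-201 and 41.9% in G3BP2-202. The methyl mark itself was not measured in these libraries.

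MKNK2 was the more abundant of the pair in every library, and the gap between the genes was wider in shYTHDC2. FPKM is scaled to transcript length, so the levels can be set side by side. The ratio of MKNK2 to G3BP2 was 2.48, 2.34 and 2.30 in shYTHDC2 replicates 1, 2 and 3, against 2.05, 1.77 and 2.09 in NC replicates 1, 2 and 3. A ratio taken within a library does not depend on how the libraries are scaled to one another. Its mean was 2.37 ± 0.09 in shYTHDC2 and 1.97 ± 0.18 in NC (SD, n = 3 each), without overlap, and the lowest shYTHDC2 ratio was 1.10 times the highest NC ratio. The MKNK2 fold was 1.21 times the G3BP2 fold. This difference comes from the contrast on which both genes were listed and was not tested. In NC replicate 2 the genes parted, with MKNK2 at its lowest and G3BP2 at its highest level of that group.

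Among the 402 listed genes MKNK2 ranked 12th by mean level in shYTHDC2 and 10th in NC, and G3BP2 ranked 28th and 26th. The median listed gene stood at 0.886 FPKM in shYTHDC2 and 0.265 FPKM in NC, so both genes were far more abundant than the typical listed gene. Their folds were not extreme. Of the 186 expressed genes with signal in NC, MKNK2 ranked 52nd by fold and G3BP2 114th, around a median fold of 2.40. By the p-value in the authors' deposited table they were the 5th and 6th of the list, smallest first.

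Both genes varied less between replicates than the median expressed gene of the list. The coefficient of variation of MKNK2 was 4.22% in shYTHDC2 and 4.53% in NC, and that of G3BP2 was 0.906% and 4.83%. The medians over the expressed genes were 9.16% in shYTHDC2 and 13.0% in NC. Of these 187 genes, 42 varied less than MKNK2 among the shYTHDC2 libraries and 19 among the NC libraries, and for G3BP2 these numbers were 4 and 21. Most of the compared genes were far less abundant than MKNK2 and G3BP2, and the spread was not compared among genes of like level. Another abundant listed gene, IL7R, also had a narrow spread, at 39.6 ± 1.6 FPKM in shYTHDC2 and 13.9 ± 0.15 FPKM in NC (SD, n = 3 each). The authors' selection of significant genes favours a low spread, so these figures may not hold for genes outside the list.

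**Figure D2:**
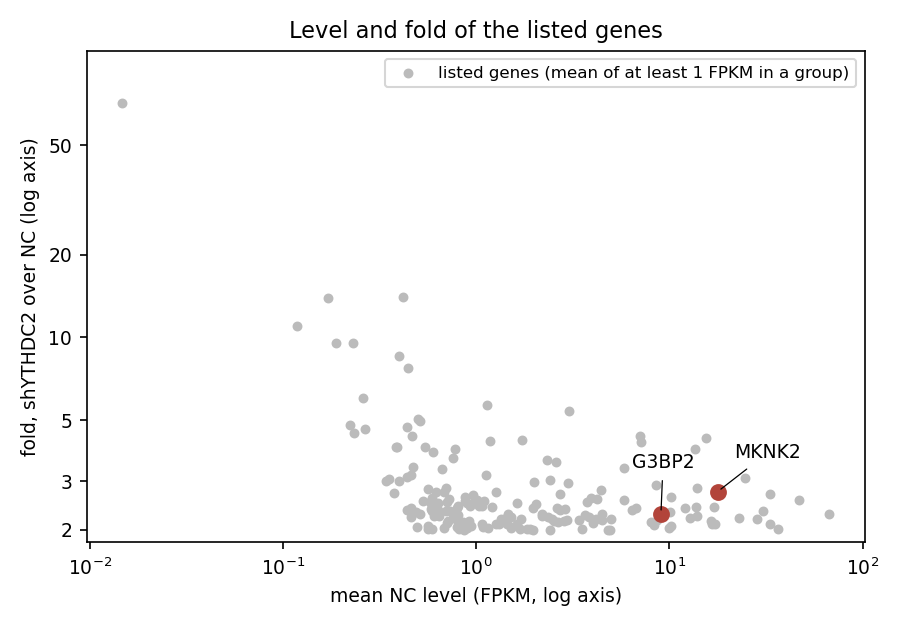
Mean NC level (horizontal, FPKM, log axis) against the fold of shYTHDC2 over NC (vertical, log axis) for the 186 expressed listed genes (group mean of 1 FPKM or more in either group) with signal in NC. MKNK2 (17.8 FPKM in NC, 2.75-fold) and G3BP2 (9.04 FPKM, 2.28-fold) lie at the abundant end, near the median fold of 2.40.

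The listed genes whose profile over the 6 libraries was most like that of MKNK2 were sought among 166 expressed genes with a symbol. Likeness was the root mean square difference of log2(FPKM + 1) values, each gene centred on its own mean, so a small value means a like pattern on that scale. The pseudocount shrinks changes at low levels, so a small value need not mean a like fold. The nearest was LCN2, a siderophore-binding protein, at 0.05, with 89.7 ± 1.3 FPKM in shYTHDC2 and 33.1 ± 2.1 FPKM in NC (SD, n = 3 each). The interleukin-7 receptor gene IL7R and GANAB, a glucosidase of the endoplasmic reticulum, followed at 0.06 each. DYSF, a membrane repair protein, was at 0.07 and STX12, an endosomal syntaxin, at 0.08. DYSF was 3.54-fold higher in shYTHDC2, from 2.58 FPKM in NC, while the folds of the others ran from 2.57 to 2.84. The median of the 166 genes was 0.30.

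For G3BP2 the nearest was PERP, a desmosome-associated membrane protein, at 0.03, with 69.5 ± 0.85 FPKM in shYTHDC2 and 33.2 ± 1.9 FPKM in NC (SD, n = 3 each). The secreted metalloprotease ADAMTS12, the cyclic AMP phosphodiesterase PDE8A, the dynein adaptor BICD2 and ANKRD33B followed, at 0.04 to 0.05. The median was 0.19. The distance between MKNK2 and G3BP2 was 0.17, which placed G3BP2 34th of the 166 from MKNK2 and MKNK2 66th of the 166 from G3BP2. The points share their libraries, and all these genes were listed for being higher in shYTHDC2, so a like profile was partly fixed by the selection.

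**Figure D3:**
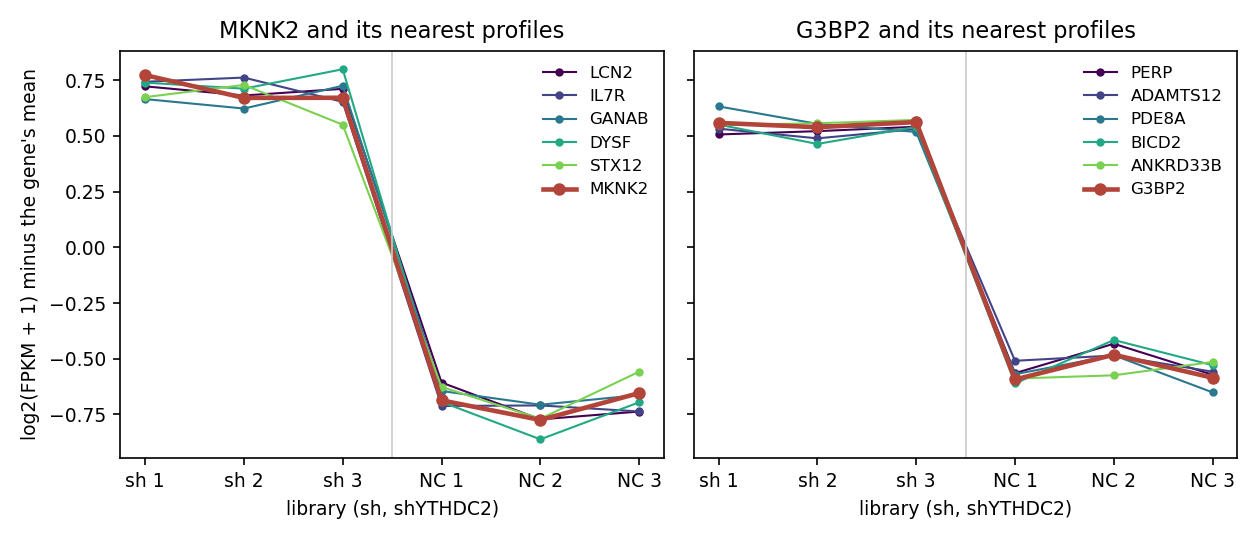
Log2(FPKM + 1) minus each gene's own mean, in the 6 libraries (sh, shYTHDC2), for MKNK2 (left, red) and G3BP2 (right, red) with the 5 listed genes nearest to each (lines). The nearest profiles lie 0.05 to 0.08 from MKNK2 and 0.03 to 0.05 from G3BP2 (root mean square difference).

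Genes known to act with MNK2 and G3BP2 were sought in the list, which held 1.47% of 19951 coding genes. Of 20 genes for the MNK kinases and the eIF4F cap-binding complex, 1 was listed, MKNK2 itself, so that neither its paralog MKNK1 nor EIF4E or EIF4G1 was among the listed genes. Of 44 stress granule nucleators and components, 1 was listed, G3BP2 itself, without G3BP1 or its partners CAPRIN1 and USP10. The lists of MAP kinase cascades and sibling kinases (30 genes), reported MNK substrates (5), eIF2 phosphorylation and the integrated stress response (19), mTORC1 signalling to translation (14), and YTHDC2 and its partners (10) had 0 listed genes. Other initiation and elongation factors had 1 of 30, EEF1A2. Over the 8 lists this was 3 of 168 distinct symbols (1.79%), namely MKNK2, G3BP2 and EEF1A2. MKNK2 and G3BP2 were known to be listed before the lists were chosen. The share therefore cannot be set against that of all coding genes, and nothing is read from it about these processes. A gene outside the list may have been lower, unchanged, or higher without meeting the authors' criteria.

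The functional annotation in the deposited table was searched for terms naming these processes or the kinase class of MNK2. The match was on words in the term names. A gene counted, TMPRSS2 under translation among them, therefore need not act in that process. Terms naming translation were attached to 6 listed genes, stress granule terms to 3, mRNA binding to 3 and protein serine/threonine kinase activity to 7, out of 293 listed genes with any Gene Ontology term. The share of all genes with these terms was not analysed here, so the counts are a description. These made 14 genes, the other 12 of them much less abundant than MKNK2 and G3BP2, at means of 0.145 to 3.05 FPKM in shYTHDC2. In NC 11 of the 12 were below 1 FPKM. Groups did not overlap for 11 of the 12. That is near the share over all listed genes (364 of 402, 90.5%), so nothing is read from it. The log2(FPKM + 1) differences of the 12 ran from 0.17 to 1.22 with a median of 0.46, against a median of 0.53 over all listed genes. At such low levels a pseudocount of 1 FPKM greatly understates the change, so these differences cannot be set beside those of MKNK2 and G3BP2. CPEB1, with the difference of 0.17, was 9.11-fold higher in shYTHDC2, at means of 0.145 FPKM against 0.0159 FPKM in NC. HABP4, with 1.22, was 4.96-fold higher.

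CDK14, a cyclin-dependent kinase, was the most abundant of these 12, at 3.05 ± 0.03 FPKM in shYTHDC2 and 0.776 ± 0.05 FPKM in NC (SD, n = 3 each, as for the values that follow). HABP4 was the 1 gene besides NANOS3 that carried both a translation and a stress granule term. This RNA-binding protein stood at 2.52 ± 0.11 FPKM in shYTHDC2 and 0.509 ± 0.06 FPKM in NC, a 4.96-fold difference. EEF1A2, which delivers aminoacyl-tRNA to the ribosome, stood at 2.80 ± 0.15 FPKM in shYTHDC2 and 1.10 ± 0.08 FPKM in NC. It is a close paralog of the abundant EEF1A1, so the split of reads between them is uncertain.

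Kinase genes at lower levels were LMTK3, at 1.71 ± 0.27 FPKM in shYTHDC2 and 0.621 ± 0.09 FPKM in NC, and the autophagy kinase ULK2, at 1.03 ± 0.26 FPKM in shYTHDC2 and 0.462 ± 0.04 FPKM in NC. CDK5R2, an activator of CDK5, stood at 1.49 ± 0.23 FPKM in shYTHDC2 and 0.631 ± 0.17 FPKM in NC. The readthrough gene FMC1-LUC7L2 had 1.58 FPKM in shYTHDC2 replicate 1 and was listed at 0 in the other 5 libraries. It shares exons with its parent genes, so its value is uncertain. In the KEGG annotation of the table, the MAPK signalling pathway held 4 listed genes. Besides MKNK2 these were the receptor genes FGFR1, FGFR3 and NGFR, at 1.72 to 1.98 FPKM in shYTHDC2 and 0.699 to 0.733 FPKM in NC. MKNK2 was the only listed gene of the insulin signalling pathway. MKNK2 and G3BP2 shared 2 terms of the Gene Ontology, protein binding and cytoplasm, which were attached to 171 and 70 listed genes.

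**Figure D4:**
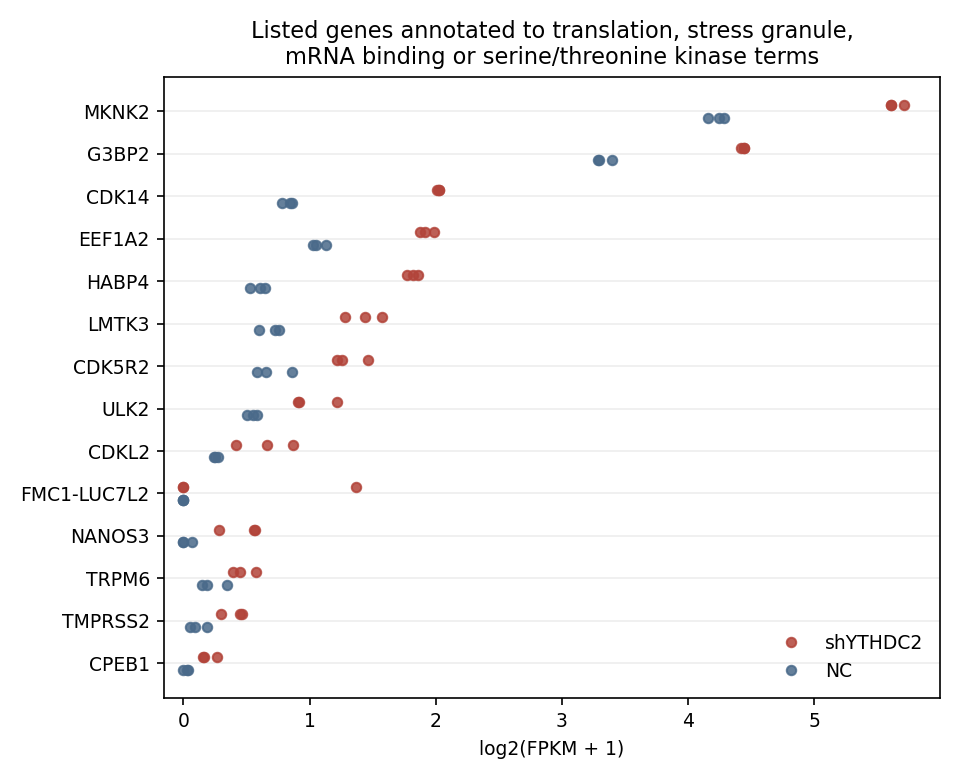
Log2(FPKM + 1) of each library (horizontal; shYTHDC2 red and above, NC blue and below, 3 points each) for the 14 listed genes annotated to translation, stress granule, mRNA binding or protein serine/threonine kinase terms. MKNK2 and G3BP2 lie far to the right of the other 12, whose shYTHDC2 means are 0.145 to 3.05 FPKM, and FMC1-LUC7L2 rests on 1 library.

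The protein-coding gene next downstream of G3BP2 was listed as well. CDKL2, a kinase gene related to the cyclin-dependent kinases, lies on the same strand at chr4:75578005-75630716, with 12065 bases between it and the end of G3BP2. Its level was 0.584, 0.829 and 0.334 FPKM in shYTHDC2 replicates 1, 2 and 3, against 0.210, 0.190 and 0.185 FPKM in NC replicates 1, 2 and 3. The groups did not overlap, but the level was under 1 FPKM throughout and varied widely in shYTHDC2. The means were 0.582 ± 0.25 FPKM in shYTHDC2 and 0.195 ± 0.01 FPKM in NC, a 2.98-fold difference. USO1, which starts 67 bases from G3BP2 on the opposite strand, was not among the listed genes, nor were BTBD2 and MOB3A, the coding neighbours of MKNK2. Of 294 listed coding genes found in GENCODE release 29, 16 (5.44%) had a listed gene directly beside them, on either side, in the order of coding genes. The same held for 576 of all 19951 coding genes (2.89%). G3BP2 and CDKL2 were singled out after their values were seen, and the relation was not tested.

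**Figure D5:**
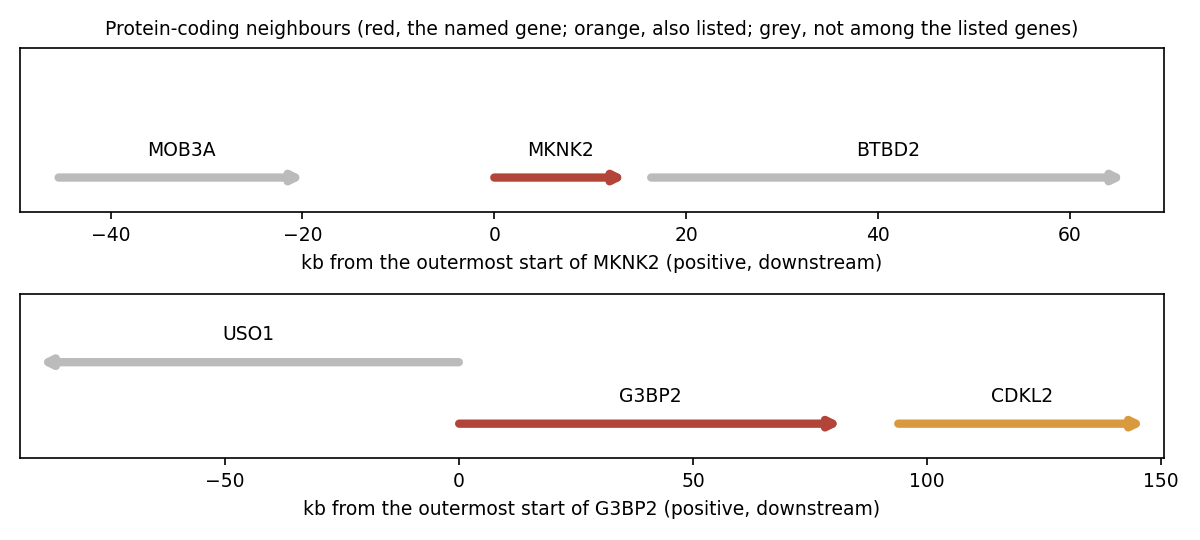
Position of MKNK2 (above) and G3BP2 (below) and their nearest protein-coding neighbours, in kb from the outermost start of each, with arrows along the direction of transcription. CDKL2 (orange), also listed, lies downstream of G3BP2 on the same strand, while USO1, BTBD2 and MOB3A (grey) were not among the listed genes.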

How the data were processed

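Poly(A) RNA of 6 CAL-27 libraries, 3 shYTHDC2 and 3 NC, was sequenced as paired ends from strand-marked libraries, per the labels' protocols. Tools named in the submitters' processing notes are fastp, HISAT2, StringTie and edgeR, with GRCh38 as the build and no versions. Which annotation and strand setting were used is not given in the sources used here. The deposited table holds FPKM per library, per the file headers. Beside them stand the authors' fold (a ratio, equal to the ratio of mean FPKM for both genes), its log2, and p-value and q-value columns from an unnamed test, all as deposited. It lists 402 genes, all marked up and significant. No counts are given, and low values showed no steps of whole reads. Depth, and with it counting error, is unknown, and a change in abundant genes shifts the FPKM of all others.

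Group means, SDs and differences of mean log2(FPKM + 1), with the SE from both group SDs, were computed in Python 3.11.15 with pandas 2.3.3 and numpy 2.4.6, and the steps were tested on simulated data. No test was run, because both genes were listed on this contrast. The smallest two-sided p of an exact permutation test of 3 against 3 is 0.1. Alternatives were pseudocounts of 0.1 and 0.01 FPKM, medians, scaling over the listed genes or within groups, filters of 1 and 5 FPKM, same-numbered libraries as pairs, and each library left out.

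Named were both genes, the 5 nearest profiles of each, listed genes of 8 gene lists, and up to 8 of the most abundant other genes with the chosen annotation terms. CDKL2's neighbourhood, CDH5, NANOS3, CPEB1, TMPRSS2 and the MAPK receptor genes were named after their values were seen. The genes and lists were chosen with earlier results of these data known. Gene positions and transcripts come from GENCODE release 29, which matched 377 of the 402 identifiers. Promoter sequences come from RefSeq (GRCh38.p14), which held both genes.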

Additional observations from a re-analysis of the deposited data

How the results depend on the processing

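The log2(FPKM + 1) difference of MKNK2, 1.41 as reported, was 1.46 with pseudocounts of 0.1 and 0.01 FPKM, 1.36 with group medians, 1.41 with scaling within groups, and 1.38 to 1.44 with each library left out. That of G3BP2, 1.11 as reported, was 1.18 and 1.19 with those pseudocounts, 1.14 with medians, 1.11 with scaling within groups, and 1.09 to 1.14 with each library left out. Scaling the libraries to one another by the median ratio over the listed genes left 0.12 for MKNK2 and -0.14 for G3BP2. That scaling takes the typical listed gene as equal between groups and set the median of the 187 expressed genes to -0.0460 (0.88 as deposited), with 114 of them below 0, so its sign compares a gene with the other listed genes. The count of listed genes without overlap, 364, was 186 and 74 with means of at least 1 and 5 FPKM, because fewer genes were counted. It was 364 with scaling within groups, and 364 to 375 with each library left out. Leaving a library out cannot lower this count, so the last range is no check of it. Taking same-numbered libraries as pairs (replicate block) cannot move the differences of 1.41 and 1.11, because the mean of the paired differences equals the difference of means. Only the SE can change, and it was 0.04 for each gene. The labels state no pairing, and the deviations of same-numbered libraries correlated at 0.06, 0.15 and 0.07 across 187 genes. The unknown depth limits the genes under 1 FPKM most, CDKL2 among them.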
